A study of Mus musculus with 45 samples.

Results

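Follicular B cells given lipopolysaccharide (LPS) for 68 h on OP9 stroma were set against follicular B cells given anti-IgM for the same time on the same stroma. The comparison takes 6 of the 45 libraries of the series by their labels, 3 with LPS and 3 with anti-IgM, and covers the 15614 genes that passed a filter on low values, of 30317 listed. In both groups the cells came from spleens of B6.Blimp1GFP/+ mice, so every library shares a GFP reporter allele of Prdm1, which encodes Blimp1. The LPS came from Salmonella enterica, the anti-IgM was an F(ab')2 preparation, and each was used at 10 µg/mL. OP9 is a bone marrow stromal line that supports lymphocytes in culture and carries no added Notch ligand. Sorting was for viability, and polyA RNA was then sequenced. No label says whether the 3 replicates of a group were separate animals or cultures. A p-value thus rests on a spread between libraries that may be technical, estimated over all 45 libraries and not from these 6 alone.

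Both agents make resting B cells enter the cell cycle, through different receptors. LPS is sensed by TLR4 with MD-2, and its adaptors lead to NF-kB and interferon regulatory factors; in mouse B cells it is known for driving plasmablast formation and switching to IgG2b and IgG3. Anti-IgM binds the surface IgM of the B cell receptor (BCR) and signals through tyrosine kinases, calcium, NFAT and MAP kinases, which induce the Egr and Nr4a genes; without further help such cells often become unresponsive.

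The estimated number of reads was 4860000 to 7640000 per library. Replicate 3 of both groups stood apart. Its Actb level, an actin gene, was 41900 TPM (transcripts per 1e+06, as deposited) with LPS and 29800 TPM with anti-IgM, where the other 4 libraries measured 831 to 1490 TPM. Replicates 1 and 2 correlated at 0.978 across genes with LPS and at 0.974 with anti-IgM, while replicate 3 correlated with them at 0.909 to 0.919 with LPS and at 0.804 to 0.805 with anti-IgM. In replicate 3 with anti-IgM, 9 unnamed gene models, picked out after their values were seen, held 38.6% of all TPM, against 0.198% to 2.1% in the other 5 libraries. Levels below are TPM divided by a size factor of the library, called scaled TPM, so that this share does not lower the other genes. B cell markers were present in all 6 libraries, with Cd79b, a chain of the BCR, at 1127, 1163 and 1144 scaled TPM with LPS and at 1318, 1626 and 1365 with anti-IgM. Its log2 fold change was -0.32 ± 0.36, adjusted p = 0.72, and the LPS values lay below the anti-IgM values without passing the test. Groups without overlap and with LPS lower were seen for 9.81% of all genes tested.

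With LPS, 441 genes were higher and 271 lower than with anti-IgM, which is 2.82% and 1.74% of the genes tested (4.56% together, limma, Benjamini-Hochberg adjusted p below 0.05). The groups did not overlap in 673 of these 712 genes, and over all genes tested they did not overlap in 18.4% (8.61% with LPS higher and 9.81% with LPS lower). The difference had the same sign in replicate 1 and in replicate 2, paired by number, for 701 of the 712. These replicates were part of the fit that made the calls, so this is no separate check. Without replicate 3 of both groups 450 genes were called (2.88%), 334 higher and 116 lower with LPS. Of the 712, 392 were among them and none changed sign, in libraries that the full fit had also used. The 712 calls rest on a spread estimated over all 45 libraries of the series. A fit that took the spread from these 6 libraries alone called 47 genes. Leaving out replicate 1 with LPS from the full fit gave 434. The fold changes below are LPS over anti-IgM on the log2(scaled TPM + 1) scale with the standard error (SE) of the model, which understates the change of genes near 0. The median over all genes tested was -0.09. Counts of called members of a list below are to be read against the 4.56% called among all genes tested. The 12 largest increases and decreases named below were picked among called genes whose groups did not overlap, so their separation was fixed by that rule.

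**Figure D1:**
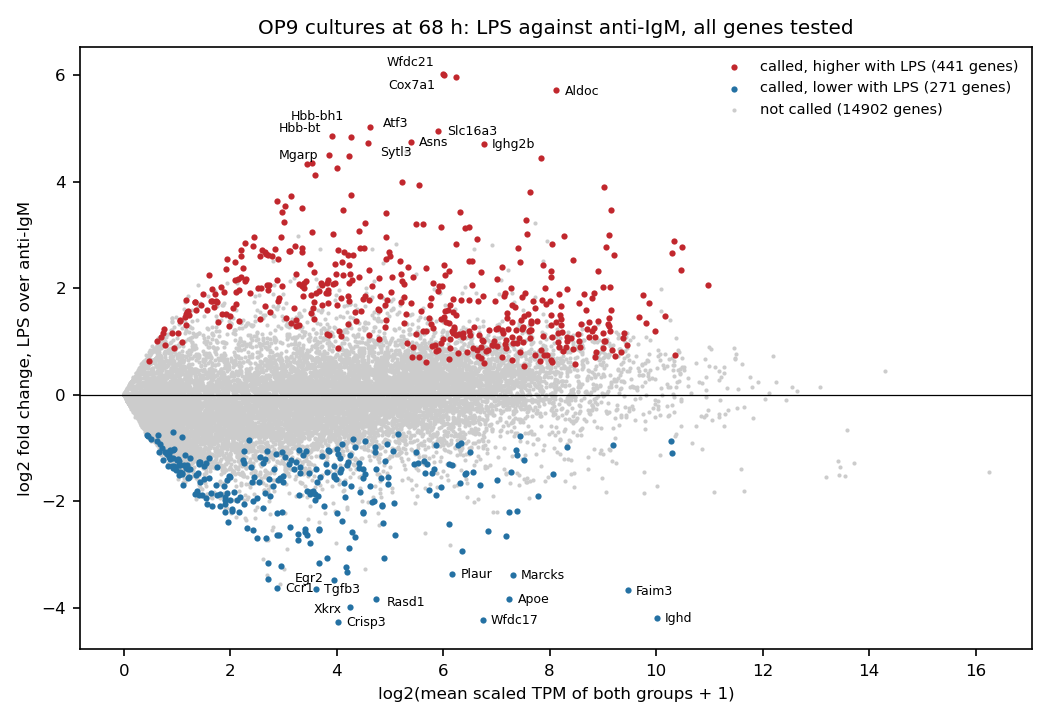
Each point is a gene, with the log2 of its mean scaled TPM over both groups plus 1 on the x axis and its log2 fold change, LPS over anti-IgM, on the y axis; the 441 genes called higher with LPS are red, the 271 called lower are blue, and names mark 11 of the 12 largest increases and the 12 largest decreases that met the naming rule. The increases reach 6.01 for Wfdc21 and Cox7a1, and the decreases reach -4.26 for Crisp3.

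Glycolysis had the largest share of called genes among the 40 lists examined. Of 29 genes of glycolysis and the hypoxia response, 21 were higher with LPS and none was lower, with a list median of 2.21 (2.08 without replicate 3). Aldoc, an aldolase isoform of glycolysis, measured 627, 515 and 486 scaled TPM with LPS, against 13.5, 18.5 and 2.89 with anti-IgM. The lowest LPS library was thus far above the highest anti-IgM library (5.71 ± 0.54, adjusted p = 2.4e-09, limma). Pdk1, the kinase that inhibits pyruvate dehydrogenase and so limits entry of pyruvate into the mitochondrion, measured 151, 163 and 123 with LPS and 13, 13.8 and 11.1 with anti-IgM (3.42 ± 0.34, adjusted p = 1.1e-08). Bnip3, a mitophagy receptor induced by hypoxia, measured 425, 494 and 186 with LPS and 35.2, 22.4 and 15.8 with anti-IgM (3.81 ± 0.51, adjusted p = 2.7e-06). Slc16a3, the exporter of lactate MCT4, measured 154, 195 and 3.93 with LPS and 0.791, 0.226 and 1.28 with anti-IgM (4.96 ± 0.91, adjusted p = 0.00046). Here replicate 3 with LPS was far below the other LPS libraries and still above every anti-IgM library, and without it the log2 fold change was 6.67. The remaining 17 called members lay between 1.20 and 3.27, and among them were the enzymes from Gpi1 to Ldha. Hif1a itself, which encodes the hypoxia-inducible subunit of the factor, was not called at a log2 fold change of -0.88. Summed over the list, these genes held 2.42%, 2.72% and 1.17% of all TPM with LPS, against 0.683%, 0.621% and 0.161% with anti-IgM, so replicate 3 was lowest in each group. These shares are unscaled, and 9 unnamed gene models held 38.6% of all TPM in replicate 3 with anti-IgM.

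Further genes of mitochondrial or hypoxic function were among the largest increases. Cox7a1, a subunit isoform of cytochrome c oxidase, measured 125, 119 and 132 scaled TPM with LPS and 0, 0 and 6.46 with anti-IgM (6.01 ± 0.69, adjusted p = 1.7e-07, limma). Mgarp, a hypoxia-induced regulator of mitochondrial movement, measured 28.8, 29.9 and 21.6 with LPS and 0, 0 and 0.765 with anti-IgM (4.51 ± 0.61, adjusted p = 3.4e-06). For both genes replicate 3 with anti-IgM was the only anti-IgM library above 0, and the groups did not overlap, which the naming rule required. Vegfa, the angiogenic growth factor, measured 21.6, 14 and 10.1 with LPS and 2.18, 0.885 and 0.881 with anti-IgM (2.79 ± 0.45, adjusted p = 7.7e-05).

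Promoters of 2 of these genes are shown because their letters hold the core of the hypoxia response element, ACGTG, printed in capitals together with its reverse complement on the other strand where the 2 overlap. The windows are the 250 bases before the RefSeq start (GRCm38.p6), read 5′ to 3′ on the strand of the gene. Slc16a3 lies at chr11:120948817-120949066 on the + strand and has the core at positions -27 and -14, where -1 is the base before the start. Bnip3 lies at chr7:138909507-138909756 on the - strand, and its CACGTG at position -108 is read on both strands.
Slc16a3: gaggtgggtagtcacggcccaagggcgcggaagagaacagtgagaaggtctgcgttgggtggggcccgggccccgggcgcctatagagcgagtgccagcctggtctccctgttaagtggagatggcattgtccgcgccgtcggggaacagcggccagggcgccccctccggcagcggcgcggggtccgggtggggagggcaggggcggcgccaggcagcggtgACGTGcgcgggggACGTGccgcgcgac
Bnip3: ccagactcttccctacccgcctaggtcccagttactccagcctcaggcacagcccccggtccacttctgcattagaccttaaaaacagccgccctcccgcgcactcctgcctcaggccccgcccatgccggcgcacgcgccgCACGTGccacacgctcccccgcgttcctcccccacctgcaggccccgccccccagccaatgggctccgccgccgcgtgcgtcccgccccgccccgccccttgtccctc
On either strand, ACGTG occurred in the promoters of 10 of the 19 called genes of the list that had a promoter in the table (52.6%), in 15 of the 26 listed genes with a promoter, called or not (57.7%), and in 18.5% of all genes in the table. A gene counted when any of its windows held the core, and by window the shares were 40.7%, 43.2% and 16.6%. Such a match describes the letters of a window and says nothing about binding.

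Cholesterol synthesis moved in the same direction. Of 29 genes of cholesterol and fatty acid synthesis, 19 were higher with LPS and none was lower, with a median of 1.86 (2.00 without replicate 3, with 19 higher again). Fdps, which makes farnesyl diphosphate at the branch point of the mevalonate pathway, measured 1009, 949 and 966 scaled TPM with LPS, against 62.9, 83.3 and 51.8 with anti-IgM. The libraries of each group lay close together and the groups far apart (3.89 ± 0.23, adjusted p = 2.6e-14, limma). Mvd, the decarboxylase upstream of it, measured 131, 146 and 57.4 with LPS and 13.3, 13.9 and 6.77 with anti-IgM (3.14 ± 0.39, adjusted p = 7.5e-07). Lss, which closes the sterol ring, measured 228, 221 and 21.6 with LPS and 13.2, 15.6 and 6.1 with anti-IgM (3.14 ± 0.63, adjusted p = 0.0015). Acat2, the thiolase that makes acetoacetyl-CoA, measured 383, 368 and 261 with LPS and 59.9, 46.4 and 23.7 with anti-IgM (3.01 ± 0.34, adjusted p = 1.4e-07). In all 4 genes the groups did not overlap, and the lowest LPS value of Lss, Mvd and Acat2 was that of replicate 3. Without that library the log2 fold change of Lss was 4.24. The fatty acid genes Fasn, Acaca and Scd1 were not called, at 1.37, 0.34 and -0.51.

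The promoter of Hmgcs1, which makes HMG-CoA, is shown because among the 12 called genes of this list with a promoter in the table it was the only one with the sterol element TCACNCCAC, in capitals at position -137. It lies at chr13:119690101-119690350 on the + strand (GRCm38.p6, RefSeq, the 250 bases before the start).
Hmgcs1: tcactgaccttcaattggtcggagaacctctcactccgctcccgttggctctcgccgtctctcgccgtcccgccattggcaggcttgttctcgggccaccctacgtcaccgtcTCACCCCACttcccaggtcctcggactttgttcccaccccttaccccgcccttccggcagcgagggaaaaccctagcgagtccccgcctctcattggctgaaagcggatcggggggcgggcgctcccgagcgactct
Of all genes with a promoter in the table, 1.22% held the element on either strand, against 8.33% of the 12 and 5.26% of the 19 listed genes with a promoter. Both of the latter shares rest on Hmgcs1 alone. By promoter window the shares were 1.05%, 8.33% and 4.55%. Hmgcs1 measured 218, 254 and 215 scaled TPM with LPS, against 39.8, 34.9 and 55.2 with anti-IgM, and the groups did not overlap (2.40 ± 0.30, adjusted p = 1.1e-06, limma).

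Genes of amino acid supply rose in part. Of 30 genes of the ATF4 pathway, which answers amino acid shortage and stress of the endoplasmic reticulum (ER), 11 were higher with LPS and none was lower, with a median of 0.92. Asns, which makes asparagine, measured 66.7, 87.7 and 84.7 scaled TPM with LPS, against 2.21, 3.59 and 0.797 with anti-IgM. Every LPS library was above every anti-IgM library (4.75 ± 0.63, adjusted p = 2.9e-06, limma). Pycr1, the last enzyme of proline synthesis, measured 48.5, 36.9 and 37.6 with LPS and 3.58, 3.96 and 2.9 with anti-IgM (3.23 ± 0.54, adjusted p = 0.00012). Slc7a3, a carrier of cationic amino acids, and Chac1, which breaks down glutathione, changed by 2.97 ± 0.50, adjusted p = 0.00015 and by 2.65 ± 0.40, adjusted p = 2.8e-05. Atf3, a stress-induced partner of this pathway, measured 38.2, 47.5 and 54.9 with LPS, against 1.43, 0 and 0.281 with anti-IgM (5.02 ± 0.30, adjusted p = 4.7e-14). Its groups stood apart in all 6 libraries, whereas Atf4, whose control is largely translational, was not called at 0.68, nor was Ddit3 at -0.29.

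Promoters of Asns and Pycr1 are shown because each holds the amino acid response element TGATGNAA, in capitals. Asns lies at chr6:7693210-7693459 with the element at position -23, and Pycr1 lies at chr11:120643749-120643998 with the element at position -103, both on the - strand (GRCm38.p6, RefSeq, the 250 bases before the start).
Asns: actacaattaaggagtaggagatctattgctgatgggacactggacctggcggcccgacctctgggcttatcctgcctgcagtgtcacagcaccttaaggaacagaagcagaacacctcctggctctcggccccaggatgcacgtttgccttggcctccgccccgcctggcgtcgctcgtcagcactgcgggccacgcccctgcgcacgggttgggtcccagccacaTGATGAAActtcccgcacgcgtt
Pycr1: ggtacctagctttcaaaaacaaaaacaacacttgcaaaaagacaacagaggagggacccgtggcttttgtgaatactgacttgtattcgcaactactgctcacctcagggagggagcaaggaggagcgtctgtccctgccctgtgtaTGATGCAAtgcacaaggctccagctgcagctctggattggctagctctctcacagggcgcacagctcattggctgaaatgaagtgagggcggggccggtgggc
The element occurred on either strand in 4 of 9 called genes of the list with a promoter in the table (44.4%), in 8 of all 25 listed genes with a promoter (32%), and in 3.91% of all genes in the table. By window the shares were 36.4%, 28.6% and 3.45%.

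**Figure D2:**
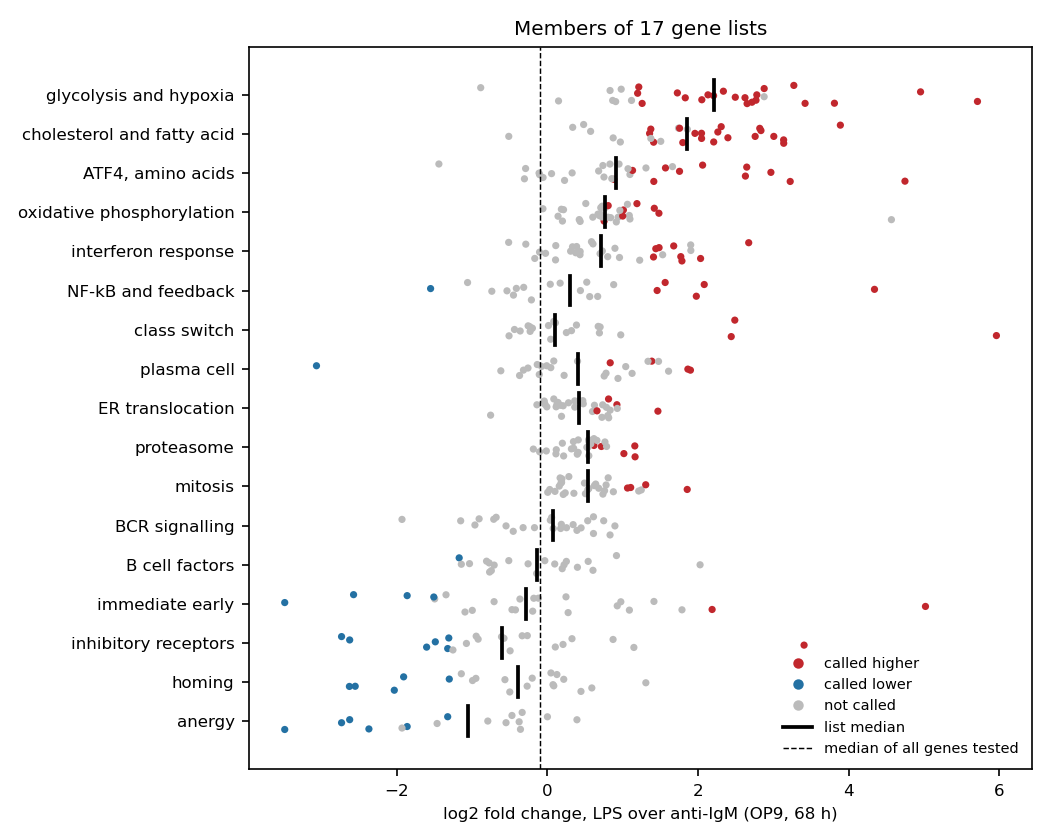
Each point is a gene of 1 of 17 lists, placed by its log2 fold change, LPS over anti-IgM; red points were called higher, blue points lower, grey points not called, thick bars are list medians and the dashed line is the median of all genes tested. The lists run from a median of 2.21 for glycolysis and hypoxia to -1.06 for anergy.

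Mitochondrial, proteasome and mitosis genes showed smaller shifts. Of 32 subunits of oxidative phosphorylation, 7 were higher with LPS and none lower (median 0.76), and Ndufb8 of complex I measured 1729.6, 1365 and 1919 scaled TPM with LPS and 436, 576 and 824 with anti-IgM (1.48 ± 0.25, adjusted p = 0.00012, limma). Of 28 proteasome subunits, 5 were higher (median 0.53), led by Psmb3 at 1.17 ± 0.21, adjusted p = 0.00042 and Psmd14 at 1.16 ± 0.18, adjusted p = 3.6e-05. The call of Psmb3 was lost with quantile normalization. Of 30 mitosis genes, 4 were higher (median 0.54) and none was called without replicate 3 of both groups. Plk1, a mitotic kinase, measured 164, 146 and 157 with LPS and 84.2, 78.1 and 10.9 with anti-IgM, so that the low value of replicate 3 with anti-IgM stood out. Its log2 fold change was 1.86 ± 0.49, adjusted p = 0.02, and 0.93 without that library. Of 38 DNA replication genes only Gins2 was called (2.63%, against 4.56% of all genes), at 0.82 ± 0.25, adjusted p = 0.046. Its call was lost without replicate 1 or 3 with LPS and without replicate 1 or 2 with anti-IgM. Of 32 ribosome biogenesis genes none was called, where 4.56% of all genes were.

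Products of NF-kB and its inhibitors were higher with LPS for some members. Of 20 listed genes 5 were higher and 1 was lower, against 3 and 0 without replicate 3 of both groups. Tnip3, a partner of the deubiquitinase A20, measured 19.5, 25.4 and 18.3 scaled TPM with LPS, against 0, 0.101 and 0.132 with anti-IgM. It was near 0 in every anti-IgM library (4.34 ± 0.29, adjusted p = 6.4e-13, limma). Nfkbiz, a nuclear IkB protein that selects secondary response genes, measured 56.8, 62 and 56.5 with LPS and 7.68, 7.93 and 34.5 with anti-IgM (2.08 ± 0.41, adjusted p = 0.001). Nfkbia, the inhibitor IkB-alpha, measured 486, 510.3 and 538 with LPS and 110.4, 115 and 169 with anti-IgM (1.98 ± 0.38, adjusted p = 0.00081). Both genes kept the groups apart, and in both replicate 3 was the highest anti-IgM library. Tnfaip3, which encodes A20, was called at 1.56 ± 0.44, adjusted p = 0.032, a call lost without replicate 3 with anti-IgM or without replicate 1 or 2 with LPS. Rel, the NF-kB subunit c-Rel, was the member that was lower, at -1.55 ± 0.35, adjusted p = 0.0052, with no call without replicate 3 of both groups.

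Of 21 cytokine and chemokine genes, 6 were higher and 1 was lower with LPS (3 and 0 without replicate 3 of both groups). Ccl5, a chemokine for T cells, measured 29.6, 40.9 and 21.1 scaled TPM with LPS and 0.677, 1.53 and 3.87 with anti-IgM (3.47 ± 0.58, adjusted p = 0.00013, limma). Il10, the regulatory cytokine, measured 4.1, 2.64 and 9.58 with LPS and 0, 0 and 0.439 with anti-IgM (2.36 ± 0.59, adjusted p = 0.012), and its call was lost without replicate 3 with LPS, the highest library. Ltb, lymphotoxin beta, was called at 1.90 ± 0.49, adjusted p = 0.015, which was lost without replicate 1 or 3 with LPS or without replicate 3 with anti-IgM. The member that was lower was Ccl3, at -1.65 ± 0.41, adjusted p = 0.012, also not called without replicate 3 of both groups. Of 32 interferon response genes, 8 were higher and none lower (median 0.72), and 5 were higher without replicate 3 of both groups. Gbp2, a GTPase of cell-autonomous defence, measured 61.6, 61 and 35.7 with LPS and 12, 12 and 2.26 with anti-IgM (2.67 ± 0.41, adjusted p = 3.6e-05). Bst2, tetherin, measured 135, 130.1 and 108 with LPS and 34.2, 41.4 and 31.6 with anti-IgM (1.77 ± 0.21, adjusted p = 3.4e-07). Usp18, a brake on interferon signalling, was higher at 1.79 ± 0.32, adjusted p = 0.00027. The groups did not overlap for these 3 genes. Ifit1 was called at 2.04 ± 0.52, adjusted p = 0.013, and not without replicate 3 with LPS or without replicate 1 or 2 with anti-IgM. Tlr4, the LPS receptor, was low in all libraries, with 2.53, 2.05 and 1.11 with LPS and 6.27, 5.79 and 4.34 with anti-IgM (-1.18 ± 0.46, adjusted p = 0.16). None of 20 genes of TLR sensing was called, where 4.56% of all genes were.

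Class switch genes moved in part. Of 21 genes of the list 3 were higher with LPS and none was lower (14.3%, against 4.56% of all genes). Without replicate 3 of both groups 2 were higher. The repair factors of the list were not called. Batf, a bZIP factor needed for class switching, measured 411, 379.9 and 391 scaled TPM with LPS and 61, 96 and 62.6 with anti-IgM, without overlap (2.44 ± 0.28, adjusted p = 1.3e-07, limma). Nfil3, another bZIP factor, was higher at 2.49 ± 0.51, adjusted p = 0.0018, with no call without replicate 3 of both groups. Among the constant regions, Ighg2b measured 249, 203 and 170.4 with LPS and 14, 4.67 and 4.72 with anti-IgM (4.71 ± 0.39, adjusted p = 1.2e-10). Ighg3 measured 176, 198 and 97.1 with LPS and 28.2, 29.4 and 4.47 with anti-IgM (3.16 ± 0.43, adjusted p = 4.9e-06). Ighd, the heavy chain of IgD that naive cells carry, went the other way, with 92, 102 and 119.8 with LPS against 1699.5, 1582 and 2597 with anti-IgM (-4.19 ± 0.46, adjusted p = 9e-08). All 3 genes kept the groups apart. Ighg1, Ighg2c, Igha and Ighe were not called, with fold changes between -0.38 and 1.13; the IgG genes resemble each other, and how reads shared between them were divided is not given in the sources used here. Ighm measured 4125, 4603 and 2108 with LPS and 3511, 3304 and 1031 with anti-IgM, with overlapping groups (0.58 ± 0.44, adjusted p = 0.54).

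Plasma cell genes gave no common direction. Of 25, 4 were higher and 1 was lower with LPS (20%, against 4.56% of all genes), and 1 and 1 without replicate 3 of both groups. Prdm1, which drives plasma cell formation, measured 5.63, 5.48 and 5.25 scaled TPM with LPS and 1.64, 1.7 and 1.11 with anti-IgM. Its groups did not overlap (1.39 ± 0.33, adjusted p = 0.0086, limma), and without replicate 3 of both groups the adjusted p was 0.09. The call of Prdm1 was also lost with a pseudocount of 0.1 and in the authors' log2 table. Mzb1, a chaperone of antibody assembly, measured 811, 853 and 488 with LPS and 204, 205 and 153 with anti-IgM (1.90 ± 0.33, adjusted p = 0.0002). Tnfrsf13b, the receptor TACI, was higher at 1.87 ± 0.41, adjusted p = 0.0039, with no call without replicate 3 of both groups. Sdc1, the plasma cell marker CD138, was lower, with 2.37, 1.22 and 1.7 with LPS against 31.9, 31.6 and 10.1 with anti-IgM (-3.06 ± 0.59, adjusted p = 0.00077), a call that was lost in the authors' log2 table. Xbp1 and Irf4, the partners of Prdm1 in this programme, were not called, at 1.13 ± 0.62, adjusted p = 0.37 and -0.62 ± 0.36, adjusted p = 0.4. Igj, the J chain (current name Jchain), measured 32.5, 31.9 and 25.3 with LPS and 12.5, 4.4 and 13 with anti-IgM, and was not called (1.61 ± 0.50, adjusted p = 0.058). Its groups did not overlap, which with LPS higher was also so for 8.61% of all genes tested. Of 31 genes of ER translocation and signal processing, 4 were higher (median 0.42), led by Sec61g at 1.47 ± 0.40, adjusted p = 0.024, a call lost without any of 5 single libraries, all except replicate 3 with anti-IgM.

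**Figure D3:**
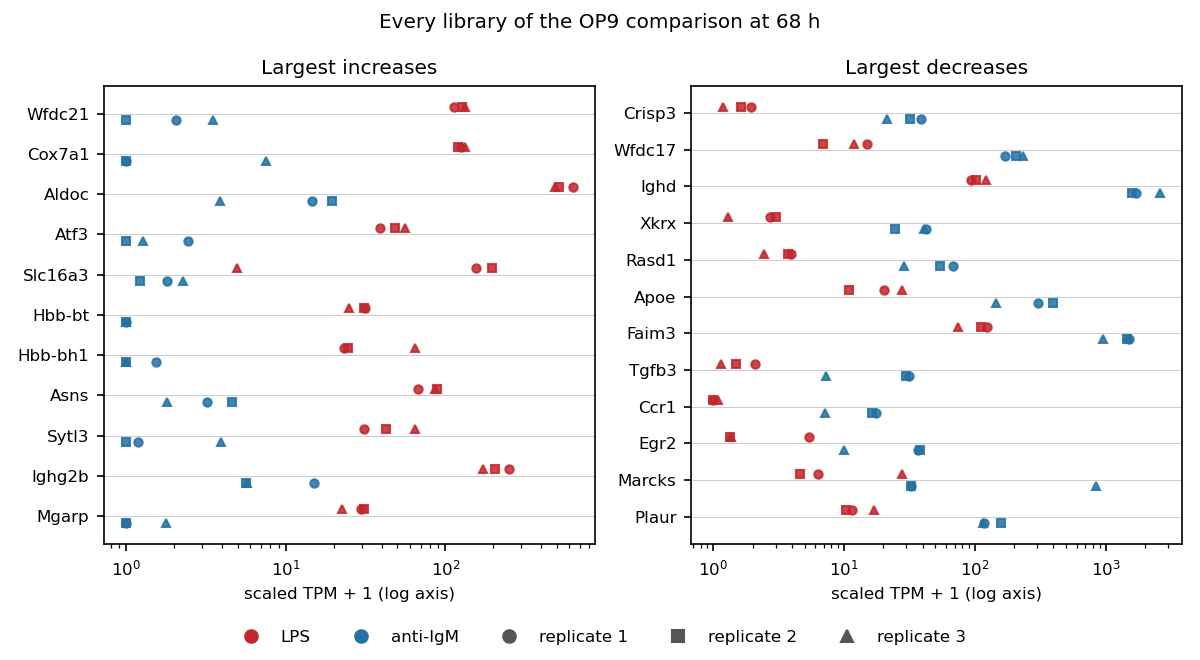
Every library of the comparison for 11 of the 12 largest increases (left) and the 12 largest decreases (right), with scaled TPM plus 1 on a log axis; LPS is red and drawn above anti-IgM in blue, and the symbols give the replicate. The genes shown were picked by a rule that required groups without overlap. Slc16a3 in replicate 3 with LPS and Marcks in replicate 3 with anti-IgM lie away from the other libraries of their group.

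Of 24 immediate early genes, many of which BCR signalling induces, 2 were higher and 4 lower with LPS. Egr2, a factor linked to B cell anergy, measured 4.42, 0.344 and 0.366 scaled TPM with LPS and 35.8, 36.9 and 9.05 with anti-IgM. The groups did not overlap, with replicate 1 the highest LPS library and replicate 3 the lowest anti-IgM library (-3.49 ± 0.65, adjusted p = 0.00058, limma). Egr1 measured 4.78, 5.49 and 1.9 with LPS and 21.6, 17.5 and 4.84 with anti-IgM and was not called, with overlapping groups (-1.49 ± 0.58, adjusted p = 0.16). Nr4a1, a rapid reporter of BCR signals, measured 45.4, 48.1 and 3.87 with LPS and 71.4, 69 and 4.81 with anti-IgM, low in replicate 3 of both groups, and was not called (-0.47 ± 0.78, adjusted p = 0.83). Dusp2, a MAP kinase phosphatase, was called lower at -2.57 ± 0.71, adjusted p = 0.027, a call lost without replicate 3 with anti-IgM or without replicate 1 or 2 with LPS. In the other direction Cd69, an activation marker that retains cells in tissue, measured 46.4, 59.9 and 29 with LPS and 8.81, 8.95 and 8.36 with anti-IgM (2.19 ± 0.47, adjusted p = 0.0027), a call lost with a pseudocount of 0.1 and in the authors' log2 table. None of 25 BCR signalling genes was called, where 4.56% of all genes were, so a list of this size may well hold none. The largest change there was Nfatc1, with 41.6, 45.7 and 9.02 with LPS and 193, 199 and 27.5 with anti-IgM (-1.93 ± 0.64, adjusted p = 0.083). Without replicate 3 with anti-IgM its fold change was -2.86 and was called, without replicate 3 with LPS it was -1.21, and it was also called with quantile normalization and without the high Actb libraries. Myc, a driver of growth, was not called, with 106, 101 and 188 with LPS and 98.3, 80.2 and 142 with anti-IgM (0.28 ± 0.38, adjusted p = 0.77).

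Some genes of anergy and inhibitory receptors were lower with LPS. Of 16 anergy genes, 6 were lower and none higher, with a median of -1.06. Pdcd1, the receptor PD-1, measured 0.97, 1.22 and 0.526 scaled TPM with LPS and 23.9, 23.4 and 2.21 with anti-IgM. Replicate 3 with anti-IgM was far below the other anti-IgM libraries and above all LPS libraries (-2.73 ± 0.63, adjusted p = 0.0054, limma), and the call was lost without replicate 1 or 2 with anti-IgM and in the authors' log2 table. Lag3, a checkpoint receptor, measured 2.3, 1.39 and 0.889 with LPS and 13, 26.4 and 8.09 with anti-IgM (-2.62 ± 0.52, adjusted p = 0.0013), with no call in the authors' log2 table. Zfp318, which allows the long transcript that yields IgD, measured 3.77, 2.97 and 6.99 with LPS and 22.4, 20.8 and 39.8 with anti-IgM (-2.37 ± 0.42, adjusted p = 0.00031). The groups did not overlap for either. Of 21 inhibitory receptor genes, which share Pdcd1, Lag3 and Cd5 with the anergy list, 6 were lower and 1 was higher (4 and 1 without replicate 3 of both groups). The one that was higher, Fcrl5, an Fc receptor-like protein, measured 54.5, 69.8 and 40.1 with LPS and 4.47, 4.12 and 3.81 with anti-IgM (3.41 ± 0.51, adjusted p = 2e-05). Havcr1, the receptor TIM-1, was called lower at -1.60 ± 0.43, adjusted p = 0.022, a call lost without any of 4 single libraries, replicate 1 or 3 with LPS and replicate 1 or 2 with anti-IgM.

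Homing receptors fell for 5 of 20 genes and rose for none (25%, against 4.56% of all genes), with 3 lower without replicate 3 of both groups. S1pr1, which leads lymphocytes out of tissue, measured 7.48, 8.61 and 5.13 scaled TPM with LPS and 88.6, 72.8 and 16.8 with anti-IgM (-2.63 ± 0.43, adjusted p = 9.1e-05, limma). Ccr6, the receptor of Ccl20, measured 31.3, 41.3 and 16.1 with LPS and 250.4, 279 and 65.7 with anti-IgM (-2.55 ± 0.44, adjusted p = 0.00016). In both genes replicate 3 had the lowest level of each group, and the groups did not overlap. Itga4, an integrin chain of VLA-4, measured 3.49, 5.07 and 4.31 with LPS and 22.6, 15.8 and 18.3 with anti-IgM (-1.91 ± 0.44, adjusted p = 0.0055). Itgb7, its partner in gut homing, was called lower at -2.03 ± 0.54, adjusted p = 0.02, a call lost without replicate 3 with LPS or without replicate 1 or 2 with anti-IgM. March1, the ligase that removes MHC class II from the surface, measured 1.84, 2.11 and 2.54 with LPS and 16.3, 15.5 and 19.4 with anti-IgM (-2.51 ± 0.43, adjusted p = 0.00015). It was the only one of 14 MHC class II genes called (7.14%, against 4.56% of all genes), and it was not called in the authors' log2 table.

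Others of the largest decreases have varied roles. Faim3 (current name Fcmr), the Fc receptor for IgM, measured 122, 111 and 73 scaled TPM with LPS and 1520.5, 1460.1 and 954 with anti-IgM (-3.67 ± 0.37, adjusted p = 1.1e-08, limma). Apoe, the lipid carrier, measured 19.1, 9.97 and 26.7 with LPS and 302, 398 and 145 with anti-IgM (-3.83 ± 0.44, adjusted p = 1.4e-07). Plaur, the urokinase receptor, measured 10.6, 9.3 and 15.8 with LPS and 116, 158 and 115 with anti-IgM (-3.36 ± 0.45, adjusted p = 3.4e-06). These genes were named by the rule that required groups without overlap. Crisp3, Wfdc17, Xkrx, Rasd1, Tgfb3 and Ccr1 changed by -4.26, -4.23, -3.99, -3.84, -3.64 and -3.63; Rasd1 is a Ras-like GTPase, Tgfb3 a TGF-beta ligand and Ccr1 a receptor of Ccl3 and Ccl5. Marcks, a substrate of protein kinase C, measured 5.27, 3.6 and 26.5 with LPS and 31.3, 31.7 and 846 with anti-IgM, with replicate 3 highest in each group. It was called at -3.38 ± 0.95, adjusted p = 0.029, and not without replicate 3 with anti-IgM, where the log2 fold change was -1.81, nor without replicate 1 or 2 with LPS.

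The summed marker genes of other cells held at most 0.0873% of all TPM per list in the 6 libraries, though single genes of these lists were well expressed. These sums, and levels given as deposited, are unscaled. In replicate 3 with anti-IgM, 9 unnamed gene models held 38.6% of all TPM, which lowers the unscaled values of the other genes there. In bulk RNA, fewer cells of a type and less RNA per cell cannot be told apart. Stroma genes summed to 0.00604% to 0.0154% of all TPM with LPS and 0.00631% to 0.0253% with anti-IgM, where unstimulated libraries held 0.119% to 1.7%. Of 22 stroma genes tested 1 was called (4.55%, against 4.56% of all genes). It was Ptn, lower at -2.19 ± 0.53, adjusted p = 0.0084, a call lost without replicate 3 of both groups, without replicate 3 with anti-IgM alone and without replicate 2 with LPS. T cell genes summed to 0.0137% to 0.0273% with LPS and 0.0127% to 0.0734% with anti-IgM; the 1 called of 11 was Lck, a Src kinase, with 42.7, 34 and 36.1 scaled TPM with LPS and 277, 319 and 160.2 with anti-IgM (-2.66 ± 0.49, adjusted p = 0.00045, limma). Myeloid genes summed to 0.0288% to 0.0873% with LPS and 0.0346% to 0.0769% with anti-IgM, and NK genes to at most 0.000179% with LPS and 0.00143% with anti-IgM, with none called in either list. Most of the myeloid sum was Cybb, a subunit of NADPH oxidase, at 272, 293 and 857 TPM as deposited with LPS and 343, 309 and 746 with anti-IgM, whereas S100a8, Lyz1 and C1qa were at 0 in all 6 libraries. Of the T cell genes, Cd2, an adhesion receptor, measured 203, 231 and 104 TPM as deposited with LPS and 269, 301 and 46.6 with anti-IgM. Lck and Cd2 made up most of the T cell sum in every library. Cd3e, Trac and Bcl11b reached at most 0.225, 0.793 and 0.398 TPM as deposited, and Lat was at 0 in all 6 libraries. Cd3g reached 4.67 in replicate 2 with anti-IgM. Erythroid genes summed to 0.00206% to 0.00356% with LPS and 0.000209% to 0.000781% with anti-IgM. Hbb-bt, a beta globin, measured 30.2, 30 and 23.8 with LPS and was listed at 0 in all anti-IgM libraries (adjusted p = 4.7e-06), and the embryonic Hbb-bh1 measured 22, 23.6 and 63.1 with LPS and 0.526, 0 and 0 with anti-IgM (4.85 ± 0.61, adjusted p = 1.1e-06). The alpha globins Hba-a1 and Hba-a2 were at 0 in all 6 libraries, and Hbb-bs, a near copy of Hbb-bt, measured 0, 0 and 0 with LPS and 1.21, 1.28 and 4.89 with anti-IgM, so the share of each beta globin is uncertain. Whether these cells play a part in any difference was not tested.

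The same contrast at 44 h on OP9 used 6 other libraries, and the difference between the 2 fold changes was tested for every gene. It was called for 63 genes (0.403% of those tested), 29 of them with a larger fold change at 68 h. Aldoc measured 19.8, 17.7 and 16.4 scaled TPM with LPS at 44 h, against 16.7, 12.8 and 11.3 with anti-IgM, and at 68 h its fold change was larger by 5.32 ± 0.76, adjusted p = 0.00021. Cox7a1 measured 7.32, 12.7 and 6.24 with LPS at 44 h, against 4.27, 5.21 and 6.94 with anti-IgM (5.45 ± 0.98, adjusted p = 0.0037). Mgarp measured at most 0.838 in any library at 44 h (4.03 ± 0.86, adjusted p = 0.018). The separation of LPS from anti-IgM in these 3 genes was thus seen at 68 h and hardly at 44 h. Pdk1 already measured 43.1, 36.7 and 53.7 with LPS at 44 h, against 24.9, 17.2 and 19.9 with anti-IgM, and the difference of the fold changes (2.35 ± 0.48, adjusted p = 0.015) was lost without replicate 3 of both groups at 68 h and without replicate 1 of anti-IgM at 44 h. The list of glycolysis and hypoxia had a median of 1.00 at 44 h and 2.21 at 68 h, with 4 members called for the difference.

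Il1r2, a decoy receptor for interleukin-1, changed sides. At 44 h it measured 1.64, 1.02 and 1.52 with LPS and 8.27, 6.57 and 6.85 with anti-IgM, and at 68 h 16.6, 18.2 and 16.8 with LPS and 5.4, 4.61 and 3.58 with anti-IgM (difference of log2 fold changes 3.52 ± 0.61, adjusted p = 0.0028, limma). Tnip3 measured 3.67, 4.37 and 5.53 with LPS at 44 h and 0.52, 0 and 0.271 with anti-IgM, again less than at 68 h (2.21 ± 0.41, adjusted p = 0.005). In the other direction, ribosome biogenesis genes had a median of 1.32 at 44 h and -0.14 at 68 h, and 5 of 32 were called for the difference. Rrp9, a protein of the box C/D particle that processes ribosomal RNA, measured 237, 200.2 and 218 with LPS at 44 h and 61, 57.6 and 63.8 with anti-IgM, while at 68 h it measured 51.7, 42.3 and 18.9 with LPS and 56.9, 53.9 and 64.2 with anti-IgM (-2.55 ± 0.40, adjusted p = 0.00095). Ighg2b, Asns, Ighd and Egr2 were already apart at 44 h, with fold changes of 4.10, 4.72, -3.16 and -4.68 there, and the differences of these from 68 h were not called.

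**Figure D4:**
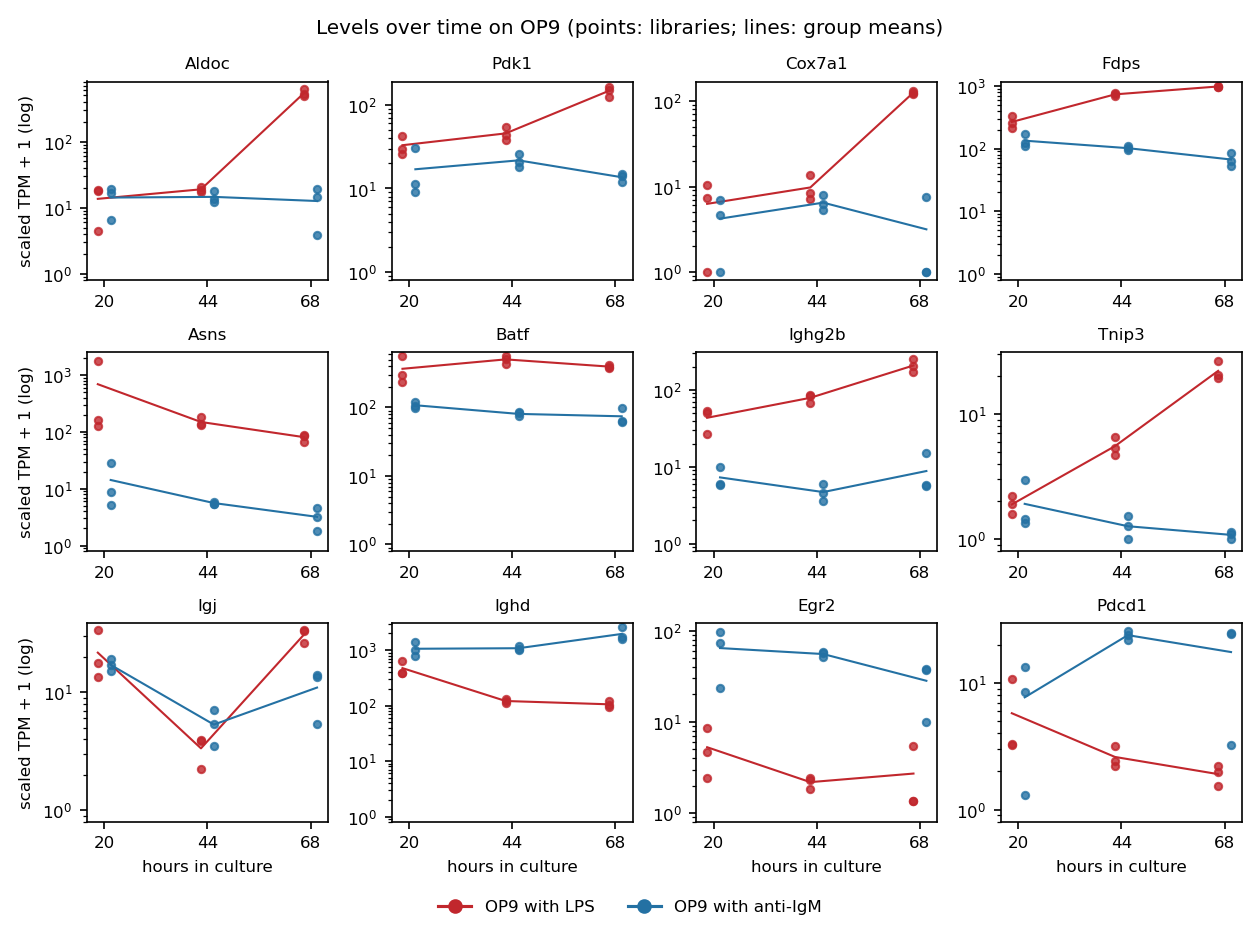
Scaled TPM plus 1 on a log axis for 12 genes on OP9 at 20, 44 and 68 h, with LPS in red left of anti-IgM in blue; points are libraries and lines join group means. Aldoc and Cox7a1 separate between the groups at 68 h, whereas Asns, Ighg2b, Ighd and Egr2 are apart at all 3 times; the 3 anti-IgM libraries at 20 h are among the 10 libraries with Actb of at least 10000 TPM.

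On OP9-DL1, the same stroma carrying the Notch ligand Delta-like 1, the contrast at 68 h again used 6 other libraries, and the OP9 fold change differed from it for 31 genes (0.199% of those tested), larger on OP9 for 22. Igj differed most. It measured 2.44, 0.603 and 1.78 scaled TPM with LPS on OP9-DL1 and 95.5, 77.8 and 111 with anti-IgM, the reverse of its order on OP9 (6.86 ± 0.71, adjusted p = 3.7e-07, limma). Rgcc, a regulator of the cell cycle, measured 37.6, 25.9 and 41 with LPS on OP9 and 1.14, 1.69 and 2.09 with anti-IgM, and on OP9-DL1 9.6, 10.5 and 14.3 with LPS and 4.01, 4.17 and 7.33 with anti-IgM (2.71 ± 0.44, adjusted p = 0.0029). Fdps measured 721, 841 and 701 with LPS on OP9-DL1 and 185, 173 and 186 with anti-IgM, so that it was higher with LPS on both stromas and less so on OP9-DL1 (1.84 ± 0.32, adjusted p = 0.0049); with TPM as deposited this difference was not called. Dynlt1a, a dynein light chain with near-identical neighbours, so that its level is uncertain, measured 85.9, 97.1 and 70.7 with LPS on OP9 and 14.5, 16.5 and 15.2 with anti-IgM, and on OP9-DL1 41.3, 57.9 and 57.4 with LPS and 43.1, 56.1 and 68.3 with anti-IgM (2.46 ± 0.38, adjusted p = 0.0012).

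The mitosis list had a median of 0.54 on OP9 and -0.54 on OP9-DL1, and 1 of its 30 genes, Cdca8, was called for the difference (1.57 ± 0.35, adjusted p = 0.043, limma), a call lost without any of 11 single libraries of the 12, all except replicate 3 with anti-IgM on OP9. The medians for cholesterol synthesis were 1.86 on OP9 and 0.99 on OP9-DL1, with Fdps alone called for the difference. For glycolysis and hypoxia the medians were 2.21 and 1.36, with 1 member called, and for the interferon response 0.72 and 1.55, with none called. Replicate 3 with LPS on OP9-DL1 is also among the libraries with high Actb.

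**Figure D5:**
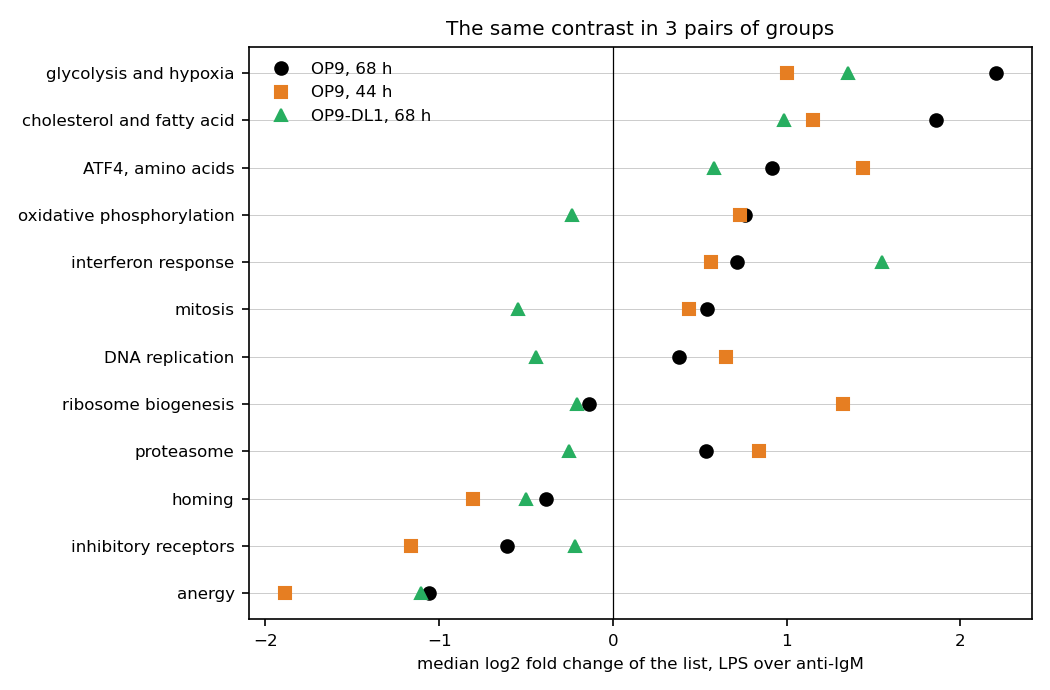
Median log2 fold change, LPS over anti-IgM, of 12 gene lists in 3 contrasts that share no library: OP9 at 68 h (circles), OP9 at 44 h (squares) and OP9-DL1 at 68 h (triangles). Glycolysis and cholesterol synthesis are highest on OP9 at 68 h, with 2.21 and 1.86, and ribosome biogenesis is above 1 only at 44 h.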

How the data were processed

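RNA of 45 libraries was deposited by the authors as TPM per gene symbol, not rescaled between libraries, and as log2 of estimated counts per 1e+06, a second deposited table. Kallisto, limma and the builds GRCm38 and mm10 appear in the submitters' processing notes; versions and the transcript set are not given in the sources used here. The series text and the labels name different SMART-seq kits. The depth was read from the floor of the log2 table (4860000 to 7640000 estimated reads in the 6 libraries). Listed TPM summed to 93.9% to 95.7% of 1e+06 there.

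Each library's TPM were divided by its median-ratio size factor (0.442 to 1.4), and log2 was taken after adding 1. Genes with at least 1 TPM in at least 3 libraries were kept. The limma model (version 3.58.1, R 4.3.3) held 15 group means over 45 libraries, with trend and robust moderation. Genes were called at a Benjamini-Hochberg adjusted p below 0.05 over all genes tested. On simulated data of 15614 genes for the comparison on OP9 at 68 h, the test recovered 20% of the genes given a log2 change of 1 and 62% of the genes given 2, and it called 1 unchanged gene. The simulated noise of a gene was independent, normal and equal in all groups, with no replicate 3 that stood apart. These rates may therefore not hold for the real libraries.

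The members, lists and tests were chosen with earlier results of these data known. Named were the 12 largest increases and decreases among called genes with groups that did not overlap and a group mean of 10 scaled TPM or more, leaving out antibody segments and unnamed gene models. To these came up to 4 called members per list (otherwise the largest change), 15 genes looked at in any case, and up to 4 genes per direction for each difference between contrasts, by call, level and name alone. Other list members, such as Hmgcs1, Hif1a, Atf4, Ddit3, Fasn, Acaca, Scd1, Rel, Ccl3, Hbb-bs, Ighg1 and Igha, were named after their values were seen. A few results that the rule would name are not reported here. Promoters came from RefSeq; 250 bases before the start were searched on both strands.

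Deviations of same-numbered libraries from their group means correlated at 0.388, 0.491 and 0.667 for replicates 1, 2 and 3. Replicate 1 correlated as well with replicate 2 of the other group (0.435 and 0.525). Same-numbered libraries correlated at -0.0891, 0.0178 and -0.126 on OP9 at 44 h. On OP9-DL1 at 68 h the values were -0.0189, 0.0657 and 0.0751. The main fit did not pair libraries by number, and the replicate block was an alternative. No label says what a number marks. Alternatives were quantile normalization, unscaled TPM as deposited, the log2 table, another pseudocount (0.1), a filter at 5 TPM or none, fits of only the groups compared, the replicate block, and fits without single libraries, high Actb libraries or immunoglobulin genes.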

Additional observations from a re-analysis of the deposited data

Results flagged for a closer look

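For 12 genes the log2 fold change of LPS over anti-IgM on OP9 differed between 68 h and 44 h in a test of the difference itself (limma, adjusted over all genes tested). It was larger at 68 h by 5.32 for Aldoc, 5.45 for Cox7a1, 4.03 for Mgarp, 3.52 for Il1r2, 2.35 for Pdk1, 2.21 for Tnip3 and 1.57 for Dynlt1a, and less negative by 2.35 for Mxd4. The differences were -2.55 for Rrp9, -2.53 for Trmt61a, -2.16 for Pdf and -2.16 for Wdr46, genes that were higher with LPS at 44 h and not at 68 h. Of 24 alternatives, the call held in 23 for Aldoc, 22 for Cox7a1, 22 for Il1r2, 21 for Rrp9, 20 for Pdk1, 20 for Tnip3, 17 for Mgarp, 17 for Pdf, 15 for Mxd4, 12 for Trmt61a, 7 for Wdr46 and 4 for Dynlt1a, and none changed sign. In the authors' log2 table only Cox7a1 of the 12 was called. Without replicate 3 of both groups at 68 h the calls of Mxd4, Pdf, Pdk1, Trmt61a, Wdr46 and Dynlt1a were lost.

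For 10 genes the fold change at 68 h differed between OP9 and OP9-DL1. It was larger on OP9 by 6.86 for Igj, 2.83 for Slco4a1, 2.71 for Rgcc, 2.46 for Dynlt1a, 2.13 for Tnip3, 1.84 for Fdps, 1.61 for Psmb3 and 1.57 for Cdca8. The differences were -2.94 for Focad and -2.42 for Slfn8. Igj was called in all 23 alternatives that kept it and Rgcc and Dynlt1a in all 24. Fdps was called in 23, Psmb3 in 16, Focad in 15, Tnip3 in 15, Slfn8 in 14, Slco4a1 in 13 and Cdca8 in 5. Slfn8 and Dynlt1a have similar neighbours, so their levels are uncertain.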

How the results depend on the processing

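Of the 712 genes called on OP9 at 68 h, 607 were also called without the 10 libraries of at least 10000 TPM Actb, where 1239 genes were called. With only the groups compared 47 genes were called (1565 at an unadjusted p below 0.05), without replicate 3 of both groups 450, and leaving out single libraries gave 434 to 805; the lowest, 434, was without replicate 1 with LPS. The share of calls that were higher was 61.9%, and 74.2% without replicate 3 of both groups. With the replicate block over all libraries 751 genes were called, 701 of them shared, and the block changed no call of a named gene. With the replicate block and only the groups compared 146 were called (76.7% higher), and 20 for the difference from 44 h.

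For that difference, 63 in all, TPM as deposited gave 12 genes, quantile normalization 40, 6 were called in the authors' log2 table, leaving out replicate 3 of both groups 34, leaving out high Actb libraries 339 and single libraries 27 to 61. For the difference from OP9-DL1, 31 in all, TPM as deposited gave 50, leaving out replicate 3 of both OP9 groups 18, leaving out high Actb libraries 102 and single libraries 5 to 55; 5 genes were called without replicate 1 with LPS on OP9 and without replicate 1 with anti-IgM on OP9-DL1. The cause of these changes was not tested.

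Of 103 named genes called, 74 were called without any single library, and 60 in every alternative apart from the fits with only the groups compared. Those fits removed most calls. Among 120 genes named by size, list or in any case, called or not, 76 calls were lost with only the groups compared. With the replicate block and only the groups compared 59 were lost. Slc16a3, Ighg3, Nfkbiz and Egr2 lost their call in both. Genes that were not called changed sign when a library was left out: Hes1 (-2.45 to 0.22, above 0 without replicate 3 with anti-IgM), Myc (-0.0101 to 0.50, below 0 without replicate 3 with LPS), Nr4a1 (-1.67 to 0.63, with 0.15, 0.12 and 0.63 without replicate 1 or 2 with anti-IgM or replicate 3 with LPS) and Actb (-1.36 to 2.67, with -0.75, -0.61 and -1.36 without the same libraries). Without counts, no detection limit can be given for genes listed at 0, and the 3 libraries per group limit the changes that can be called.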

Other observations

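Some genes of cell cycle arrest and death differed. Cdkn1a, the p53 target p21 that inhibits cyclin-dependent kinases, measured 58.3, 49.9 and 52 scaled TPM with LPS and 4.4, 8.98 and 12.4 with anti-IgM, without overlap (2.60 ± 0.46, adjusted p = 0.00025, limma). Bax, which permeabilises mitochondria, measured 287, 309 and 263 with LPS and 97.9, 115 and 86.4 with anti-IgM (1.52 ± 0.32, adjusted p = 0.0026), and was not called with TPM as deposited or in the authors' log2 table. Of 17 p53 target genes 3 were higher and 1, Plk2, was lower (-1.46 ± 0.43, adjusted p = 0.039); without replicate 3 of both groups 2 were higher and none lower. Mxd4, an antagonist of Myc, measured 13.9, 10.7 and 17.3 with LPS and 35.8, 49.5 and 54.1 with anti-IgM (-1.67 ± 0.35, adjusted p = 0.0022), a call lost in the authors' log2 table. Bcl2l1, which encodes Bcl-xL, was not called, with 52.4, 43.1 and 82.2 with LPS and 30.4, 27.8 and 8.59 with anti-IgM (adjusted p = 0.18), and neither was Ccnd2, a D-type cyclin (0.99 ± 0.46, adjusted p = 0.26).

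Of 21 costimulatory genes 2 were higher and 2 lower, against 4 higher and none lower without replicate 3 of both groups. Cd80, a ligand of CD28, measured 4.58, 5.53 and 11.7 scaled TPM with LPS and 0.659, 1 and 1.6 with anti-IgM, without overlap (1.92 ± 0.35, adjusted p = 0.00046, limma). Icosl, the ligand of ICOS, measured 1.63, 1.49 and 0.441 with LPS and 7.18, 6.31 and 9.1 with anti-IgM (adjusted p = 0.017), a call lost without replicate 3 of either group or of both. Cd36, a scavenger receptor typical of marginal zone B cells, measured 68.7, 55 and 76.3 with LPS and 11.7, 8.14 and 17 with anti-IgM (2.39 ± 0.46, adjusted p = 0.00078). Psmb9, a subunit of the immunoproteasome, was the only one of 16 MHC class I genes called (1.08 ± 0.24, adjusted p = 0.0045), and it was not called with quantile normalization. That is 6.25% of the list, against 4.56% of all genes. Sytl3, a synaptotagmin-like protein of vesicle traffic, measured 29.9, 41.3 and 63.3 with LPS and 0.18, 0 and 2.9 with anti-IgM (4.72 ± 0.45, adjusted p = 4.2e-09). Wfdc21, a whey acidic protein family member, measured 112, 127 and 133 with LPS and 1.03, 0 and 2.52 with anti-IgM, the largest increase named (6.01 ± 0.87, adjusted p = 1.2e-05).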
